A study of Homo sapiens with 6 samples.

Results

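The genes described here are the 42 that make up the core of the chaperone system of the cytosol and the mitochondrion. They were taken by name as a list of 2 heat shock factors and 40 chaperones and co-chaperones, and all 42 were found among the 33514 gene rows. The list was chosen with earlier results of these data known. All 42 also had enough reads to be tested, out of 16209 genes tested. RNA sequencing was done on PC3 cells, an established human prostate cancer line that came from a bone metastasis and was grown in RPMI medium with fetal serum. The study compared 3 groups of 2 libraries: untreated cells (the control), cells given 50 µM heme in the medium for 2 h, and cells given 50 µM heme for 4 h. No group carries a genetic change, the labels name no vehicle for the control, and they do not say whether the replicates were separate cultures. A p-value here therefore reflects how much these libraries vary, and that variation may be only technical. The 2 h and the 4 h comparisons use the same 2 control libraries. The labels give the control no time point, so an effect of heme and one of time or handling cannot be told apart.

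Chaperones bind proteins that are not yet folded or have lost their fold. In the cytosol, HSP70 proteins take up such chains with the help of J-proteins, which deliver them and trigger ATP use, and of exchange factors (the HSP110 and BAG families), which reset the cycle. HSP90 and its co-chaperones act later on kinases and steroid receptors, and the CCT ring folds actin and tubulin inside its chamber. Mitochondria have a matrix set of their own: an HSP70 (HSPA9), an HSP90 (TRAP1) and the HSPD1-HSPE1 chamber. The heat shock factor HSF1 switches on many of these genes during proteotoxic stress by binding heat shock elements, repeats of GAA and its reverse TTC in alternating orientation. HSF1 itself is controlled mostly at the protein level. Heme is an iron-containing porphyrin that cells need for respiratory proteins and that is toxic when free.

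The libraries were deep and alike in depth. Each held between 53129375 and 55537611 gene counts, and the 42 genes took 1.95% and 1.85% of them in the controls, 1.45% and 1.44% at 2 h, and 2.13% and 1.87% at 4 h. Levels below are in CPM, a gene's counts relative to the library's total after that total was scaled by edgeR's TMM method. The 5 genes chosen as marks of PC3 identity (KRT8, KRT18, EPCAM, VIM and CD44) summed to between 2329 and 2633 CPM in every library. Of these EPCAM was called lower at 2 h, at 277 and 305 CPM against 358 and 351 CPM in the controls (adjusted p = 0.031), and both 2 h libraries also lay below both controls for CD44 (adjusted p = 0.066). The prostate genes KLK3 and FOLH1 and the red cell genes HBB and HBA1 had 0 counts in all 6 libraries, which allows up to 0.0581 CPM (3 counts) in the library with the smallest scaled total. The summed level of 7 blood cell genes, most of it CD68, ran from 43.2 to 53.7 CPM. Within it CD14 was 3.65-fold higher at 2 h (adjusted p = 0.0014), at 2.56 and 1.86 CPM against 0.405 and 0.797 CPM in the controls, and stood at 0.678 and 1.01 CPM at 4 h. The summed level of 5 fibroblast and endothelial genes was 46.4 and 48.9 CPM in the controls, 88.5 and 74.1 CPM at 2 h and 45.3 and 50.3 CPM at 4 h, nearly all from COL1A1 and PECAM1. EPCAM, CD14, COL1A1 and PECAM1 thus moved with the 2 h group, and their part in the results below was not tested.

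Heat shock elements are shown first because they are the sequence feature the chaperone genes share by textbook knowledge. RefSeq promoter windows (250 bases before to 50 bases after each start site, GRCh38.p14) were used for 38 of the 42 genes. HSPA14, FKBP4 and CCT6A had none. HSF1 was left out because windows on its chromosome, 8, were not searched for the 42 genes. The all-gene counts kept that chromosome. The windows were searched for 3 units in a row, GAANNTTCNNGAA or its reverse complement TTCNNGAANNTTC, and for 2 units, GAANNTTC or TTCNNGAA, the shorter pair also counting where it lies inside the longer one. The 3-unit element was in the windows of 7 of the 38 genes (18.4%), against 166 of 27305 genes of the whole table (0.608%). The 2-unit element was in 21 of the 38 (55.3%), against 16.2% of all genes. A match is a description of letters and not a sign of binding. The matched stretches of the 7 genes follow, 5′ to 3′ on the gene's strand, with the matched bases in capitals; where a GENCODE exon covers them, only the matched bases are printed.
HSPA8 (chr11:123062354-123062366, minus strand): GAAAGTTCCAGAA
HSPA8 (chr11:123062179-123062191, minus strand): TTCTGGAAGGTTC
HSP90AA1 (chr14:102087120-102087132, minus strand): TTCCGGAAGGTTC
HSP90AB1 (chr6:44247758-44247810, plus strand): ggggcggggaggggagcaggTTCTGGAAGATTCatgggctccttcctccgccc
HSP90AB1 (chr6:44247811-44247863, plus strand): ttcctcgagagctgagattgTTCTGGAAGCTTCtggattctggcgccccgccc
DNAJA1 (chr9:33025276-33025288, plus strand): GAACTTTCCAGAA
CHORDC1 (chr11:90223087-90223109, minus strand): GAAAATTCGCGAAGGTTCCTGAA
HSPD1 (chr2:197500068-197500085, minus strand): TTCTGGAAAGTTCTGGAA
DNAJB6 (chr7:157336853-157336905, plus strand): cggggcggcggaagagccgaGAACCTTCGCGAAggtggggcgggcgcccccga

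CHORDC1 carries 3 overlapping matches, from position -60 to -38 relative to its start site, and HSPD1 carries 2, from -245 to -228. HSP90AB1 has 1 match at -165 to -153 and another at -112 to -100, and in HSPA8 they lie at -230 to -218 and at -55 to -43. HSPD1 and HSPE1 are read in opposite directions from neighbouring RefSeq start sites. The HSPD1 stretch lies between them where the HSPD1 start 539 bases from that of HSPE1 is taken, and inside HSPD1 where the one 105 bases away is taken. The search took exact matches only, so elements with a mismatched unit were not counted. By that search the stress-induced pair HSPA1A and HSPA1B has only the 2-unit element in this window, shown for contrast.
HSPA1A (chr6:31815417-31815463, plus strand): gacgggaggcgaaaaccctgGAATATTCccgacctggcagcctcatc
HSPA1B (chr6:31827613-31827660, plus strand): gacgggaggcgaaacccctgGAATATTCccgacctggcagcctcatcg

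At 2 h of heme most of these genes were lower than in untreated cells. Of the 42, 26 were called lower, 1 (DNAJB4) was called higher and 15 were not called, where called means an adjusted p under 0.05 in edgeR's quasi-likelihood test over all genes. Among all tested genes 15.8% were called lower, 15.9% higher and 31.7% either way. Because the 42 were chosen with earlier results of these data known, setting these shares side by side is a description. Among the 9433 genes with a control mean of at least 10 CPM, a limit that all 26 also pass and that was added after the values were seen, 24.7% were called lower and 13.6% higher. The falls of the 26 ran from 17.4% to 44.8%, with a median of 29.1%. On the log2 scale the median change of the 42 genes was -0.40, beside 0.02 over all tested genes. The 2 libraries at 2 h were alike in this: 34 and 39 of the 42 genes lay below the control mean, and the median log2 ratio to that mean was -0.38 in each. The same counts per library were not made over all genes. In the fit of both libraries, 36 of the 42 changes were negative, beside 7841 of the 16209 tested genes. Because RNA was taken in bulk, fewer cells expressing a gene and less RNA per cell cannot be told apart. Tested against a change of 1.5-fold (glmTreat) in place of any change, none of the 42 was called, although the fitted falls of HSPH1 and HSPA8 were 1.81-fold and 1.80-fold, with 95% intervals of the log2 change ending at -0.60 and -0.63. Without control replicate 1, 15 were called lower in place of 26; leaving out any other library left 25 to 27. HSPA4, DNAJA2, HSP90AB1 and HSPA9 were among the calls lost without that control.

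**Figure D1:**
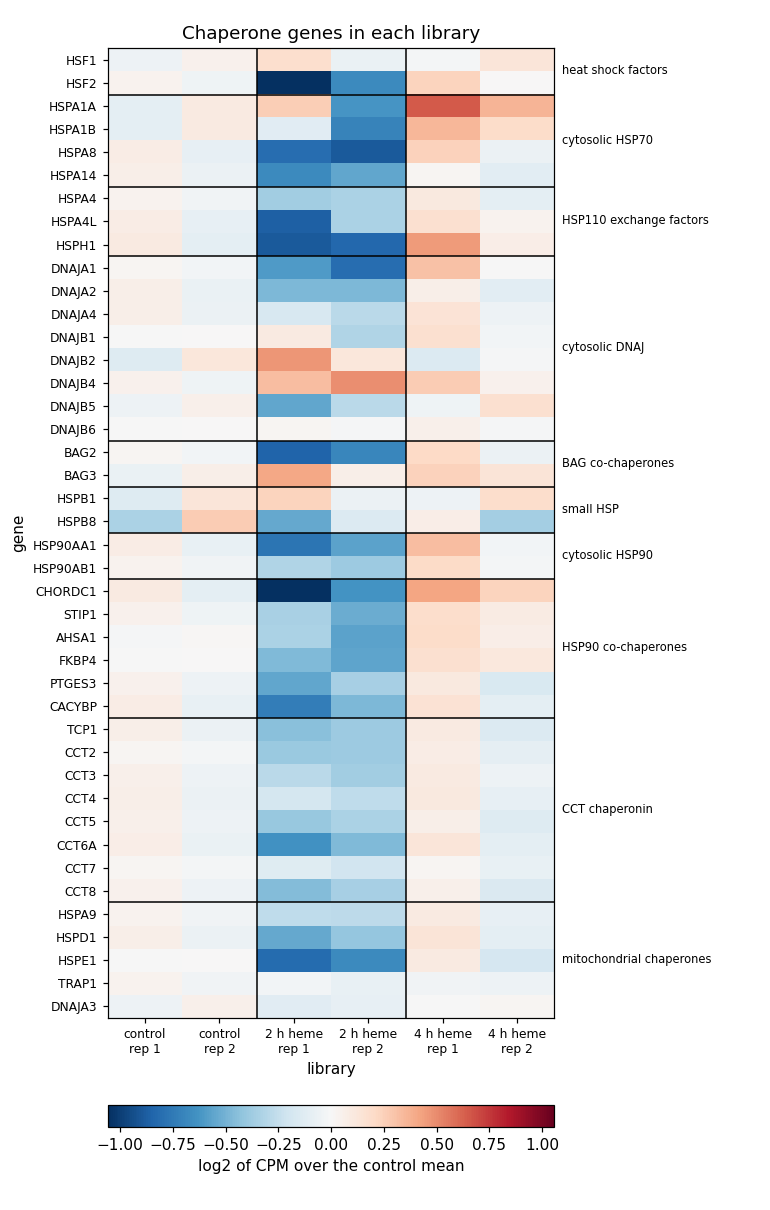
Level of each of the 42 chaperone genes in each of the 6 libraries, as log2 of CPM over the mean of the 2 control libraries; genes are rows, grouped by role, and blue is lower than the control. Both 2 h columns are mostly blue, with medians of -0.38, and the 4 h columns lie near 0, with medians of 0.12 in replicate 1 and -0.04 in replicate 2.

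Of the heat shock factors, HSF2 fell at 2 h and HSF1 was not called in any comparison. HSF2 (chr6:122399546-122433119), a factor that forms mixed trimers with HSF1, stood at 16.3 and 15.4 CPM in the controls, 7.65 and 9.95 CPM at 2 h and 18.6 and 15.9 CPM at 4 h. Both 2 h libraries were thus below all others, and the log2 change at 2 h was -0.85 (SE 0.15, adjusted p = 9.8e-04), which is -44.5%. HSF1, the main stress-responsive factor, had 138 and 148 CPM in the controls, 162 and 136 CPM at 2 h and 141 and 156 CPM at 4 h. These groups overlapped, with a log2 change of 0.06 (SE 0.11, adjusted p = 0.71) at 2 h and a 95% interval from -0.17 to 0.29. HSF1 shares 139 exonic bases with DGAT1 on the other strand, and without a stated strand setting the reads of such partners cannot be told apart.

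Of the 4 cytosolic HSP70 genes, 2 fell and none rose. HSPA8 (chr11:123057489-123063230), the constitutive HSC70, was read at 3552 and 3161 CPM in the controls, 1916 and 1812 CPM at 2 h and 3972 and 3208 CPM at 4 h. The 2 h libraries lay far below the other 4, which overlapped. HSPA8 fell by 44.5%, a log2 change of -0.85 (SE 0.10, adjusted p = 5.4e-05) with the smallest p among the 42. HSPA14, a ribosome-associated HSP70 relative, went from 34.2 ± 2.04 CPM (mean ± SD, n = 2) to 22.4 ± 1.35 CPM, a log2 change of -0.61 (SE 0.12, adjusted p = 0.0017). Its symbol names 2 overlapping genes in GENCODE 29, so its row may hold reads of either.

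HSPA1A (chr6:31815464-31817946) and HSPA1B (chr6:31827735-31830255), the near-identical stress-induced HSP70 genes, were not called at 2 h. HSPA1A had 105 and 120.2 CPM in the controls, 135 and 73.2 CPM at 2 h and 176 and 145 CPM at 4 h. The 2 h replicates lay on either side of the controls, and both 4 h libraries lay above all others. For HSPA1B the controls held 125 and 143 CPM, the 2 h libraries 123 and 81.8 CPM and the 4 h libraries 170.5 and 153 CPM. At 2 h both were below the controls, the first by little, with a log2 change of -0.38 (SE 0.15, adjusted p = 0.061), against -0.12 (SE 0.20, adjusted p = 0.69) for HSPA1A. Since reads of such copies are hard to assign, the 2 rows were also summed. The count line for reads aligned to more than 1 place read 0 in every library. Reads that the copies share may therefore be missing from both rows, and a sum does not recover them. The sum was 229 and 263 CPM in the controls, 258 and 155 CPM at 2 h and 347 and 297 CPM at 4 h. HSPA1A made up 45.7% to 52.3% of the pair in every library. The summed pair changed by -0.25 on the log2 scale at 2 h (SE 0.17, adjusted p = 0.27).

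All 3 HSP110 genes, whose proteins exchange nucleotide on HSP70 and act with it on aggregates, fell. HSPH1 (chr13:31134974-31162388), also called HSP105, had 314 and 274 CPM in the controls, 159 and 166 CPM at 2 h and 403 and 309 CPM at 4 h. The 2 h libraries were the lowest pair with no overlap, and its log2 change of -0.86 (SE 0.12, adjusted p = 1.4e-04) was the largest estimated fall among the 42 genes. HSPA4 fell by 21.5%, from 300.1 ± 10.1 to 235 ± 3.55 CPM (adjusted p = 0.013). HSPA4L, a close relative, went from 12.1 ± 0.997 to 8.13 ± 2.08 CPM (adjusted p = 0.02), a call lost without control replicate 1 and without 2 h replicate 1.

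The 8 cytosolic J-protein genes did not move as a block: 2 fell, 1 rose and 5 were not called. DNAJA1, a farnesylated partner of HSPA8, had 276 and 267 CPM in the controls, 179 and 156 CPM at 2 h and 337 and 271 CPM at 4 h. No 2 h value overlapped another group, and the log2 change was -0.70 (SE 0.11, adjusted p = 4.2e-04). DNAJA2 fell by 28.1% (log2 -0.48, SE 0.10, adjusted p = 0.0029). DNAJB1, the J-protein that pairs with stress-induced HSP70 and is itself a classical HSF1 target, read 477 and 478 CPM in the controls, 509 and 384 CPM at 2 h and 536 and 467 CPM at 4 h. Its 2 h replicates fell on both sides of the control values (log2 -0.10, SE 0.12, adjusted p = 0.57).

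DNAJB4 was the 1 gene called higher: 9.1 and 8.54 CPM in the controls, 11.1 and 12.4 CPM at 2 h and 10.6 and 9.11 CPM at 4 h. Both 2 h libraries were above all others, but the log2 change of 0.41 (SE 0.15, adjusted p = 0.046) sat at the threshold and its call was lost under 10 of 13 other settings. DNAJB2, a J-protein with ubiquitin-interacting motifs, had 65.3 and 77.8 CPM in the controls, 99.1 and 77.7 CPM at 2 h and 64.7 and 70.8 CPM at 4 h; 1 of its 2 h libraries overlapped the controls (log2 0.31, SE 0.13, adjusted p = 0.079). DNAJB6, which keeps polyglutamine proteins from aggregating, had the smallest change at 2 h in size (0.01), with means between 158 and 160.3 CPM in the 3 groups. The remaining pair was low in PC3 cells: DNAJA4 at 5.39 ± 0.313 CPM and DNAJB5 at 7.62 ± 0.386 CPM in the controls, with log2 changes at 2 h of -0.22 (SE 0.17, adjusted p = 0.34) and -0.41 (SE 0.17, adjusted p = 0.071).

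**Figure D2:**
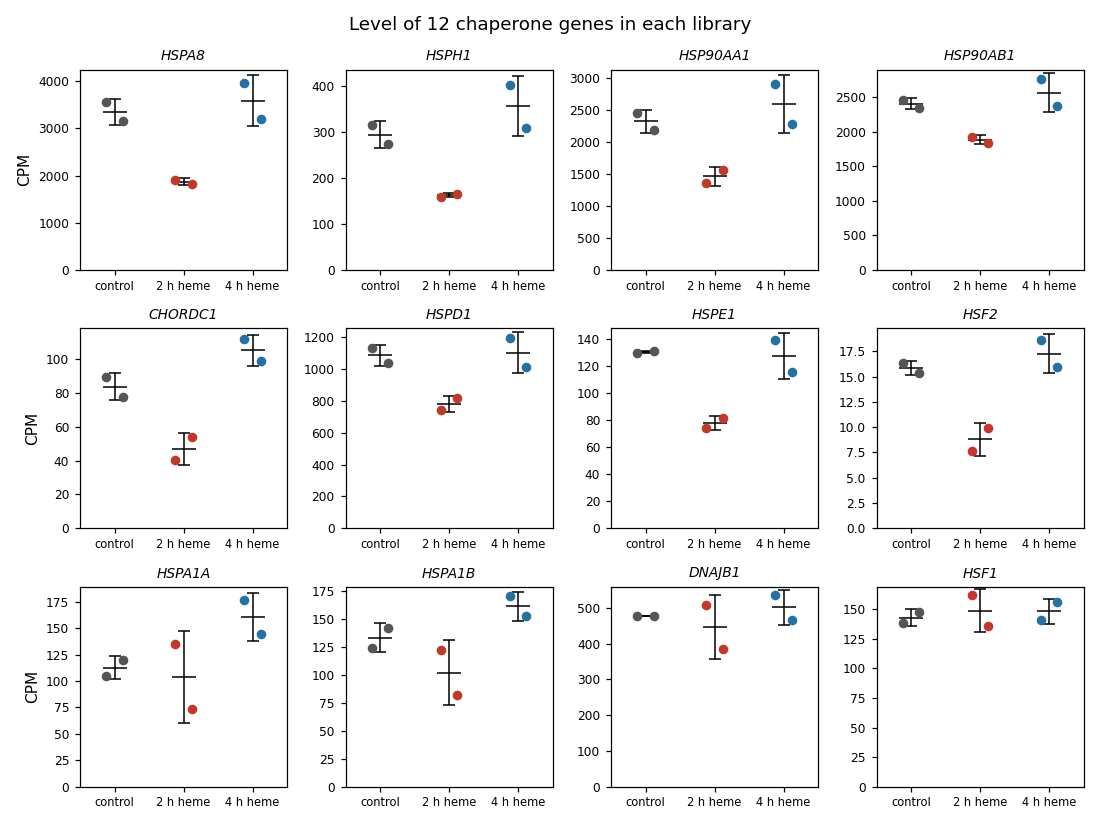
CPM of 12 chaperone genes in each library (points), with the group mean and SD (bars, n = 2 libraries); every axis starts at 0. The 8 genes in the upper and middle panels have both 2 h libraries below the other 4, while the 2 h points of HSPA1A, DNAJB1 and HSF1 overlap the controls.

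BAG proteins release HSP70 clients, and the 2 members differed. BAG2, which inhibits the ubiquitin ligase CHIP, had 65.3 and 63.1 CPM in the controls, 35.7 and 39.8 CPM at 2 h and 74.4 and 61.5 CPM at 4 h. Its fall at 2 h was clear of the other groups (log2 -0.77, SE 0.12, adjusted p = 2.9e-04); BAG2 overlaps RAB23 on the other strand over 2842 exonic bases. BAG3, a stress-induced co-chaperone that steers clients to autophagy, held 89.4 and 98.1 CPM in the controls, 124 and 97.7 CPM at 2 h and 111 and 103 CPM at 4 h, and its 2 h values overlapped the controls (log2 0.24, SE 0.12, adjusted p = 0.13). Neither small heat shock protein gene was called at 2 h by edgeR or by DESeq2, nor at an unadjusted p under 0.05. HSPB1 (HSP27), which holds unfolded proteins for HSP70, had 98.8 and 119 CPM in the controls, 128 and 104 CPM at 2 h and 104 and 124 CPM at 4 h, with all groups overlapping (log2 0.10, SE 0.13, adjusted p = 0.59). HSPB8, the partner of BAG3, was barely present, between 36 and 60 reads a library and 0.733 and 1.11 CPM in the controls, 0.635 and 0.834 CPM at 2 h and 0.968 and 0.719 CPM at 4 h. At that depth its interval at 2 h ran from -1.10 to 0.44 on the log2 scale, which does not exclude a change of the size seen in HSPA8.

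Both cytosolic HSP90 genes fell at 2 h. HSP90AA1 (chr14:102080738-102139699), the inducible alpha isoform, had 2449.7 and 2195 CPM in the controls, 1359 and 1565 CPM at 2 h and 2913 and 2275 CPM at 4 h. HSP90AB1 (chr6:44246166-44253888), the constitutive beta isoform, had 2459 and 2344 CPM in the controls, 1926 and 1837 CPM at 2 h and 2761 and 2366 CPM at 4 h. In each gene the 2 h libraries were below all others. The log2 changes were -0.67 (SE 0.11, adjusted p = 6.5e-04) and -0.35 (SE 0.09, adjusted p = 0.01); whether the 2 falls differ was not tested. Levels were also divided by the length of all annotated exons of a gene, merged, which can exceed the length of its main RNA. Their order therefore depends in part on annotation. On that scale HSP90AB1 was the highest in the controls of the members with an exon length (HSPA14 has none), at 806 CPM per kilobase. HSPA8 followed at 692, HSP90AA1 at 443, CCT8 at 295 and HSPD1 at 256, and HSPB8 was the lowest at 0.322. In CPM alone the control mean of HSPA8 was above that of HSP90AB1, at 3356 against 2401 CPM.

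Each of the 6 HSP90 co-chaperone genes fell at 2 h. CHORDC1 (chr11:90201160-90223364), a zinc-binding partner of HSP90 and the gene with 3 overlapping elements in its promoter window, had 89.1 and 77.8 CPM in the controls, 40.1 and 53.7 CPM at 2 h and 112 and 98.5 CPM at 4 h. The 3 groups did not overlap, with 2 h lowest and 4 h highest, and the log2 change at 2 h was -0.83 (SE 0.13, adjusted p = 4.1e-04). CACYBP, a calcyclin-binding adaptor, fell by 34.0%, and FKBP4, the immunophilin of steroid receptor complexes, fell by 30.0%. AHSA1, which activates the HSP90 ATPase, fell by 26.5%. PTGES3 (p23), which holds HSP90 closed, fell by 26.5%, and STIP1 (HOP), which links HSP70 to HSP90, fell by 25.8%. Their adjusted p-values lay between 7.4e-04 for FKBP4 and 0.0063 for PTGES3, and the calls of STIP1 and PTGES3 were lost without control replicate 1.

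The CCT chaperonin is a ring of 8 different subunits, and 6 of its 8 genes fell while none rose. CCT6A, the zeta subunit, had 523 and 475 CPM in the controls, 319.5 and 361 CPM at 2 h and 545 and 464 CPM at 4 h, with no overlap between 2 h and the rest (log2 -0.55, SE 0.10, adjusted p = 0.0013). In the other called subunits the change was -24.9% for TCP1, -24.4% for CCT8, -23.7% for CCT2, -22.4% for CCT5 and -20.3% for CCT3. Their adjusted p-values ran from 0.0055 to 0.015, and all 5 calls were lost without control replicate 1. CCT4 and CCT7 were not called, with log2 changes of -0.23 (SE 0.10, adjusted p = 0.085) and -0.16 (SE 0.09, adjusted p = 0.18), although both 2 h libraries were below both controls in each. Summed over the 8 genes, the CPM at 2 h stood at 76.8% and 78.6% of the control mean. The protein ring itself was not measured. CCT8 was read at 1019 and 951 CPM in the controls, 718 and 772 CPM at 2 h and 1021 and 887 CPM at 4 h.

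In the mitochondrial set, 3 of 5 genes fell and 2 were not called, with the largest estimates in the chamber genes. HSPD1 (chr2:197486581-197516737), which forms the HSP60 chamber, had 1132 and 1039 CPM in the controls, 746 and 818 CPM at 2 h and 1194 and 1010.5 CPM at 4 h (log2 -0.47, SE 0.10, adjusted p = 0.0027). HSPE1 (chr2:197499994-197503457), the HSP10 lid of that chamber, had 129.9 and 131 CPM in the controls, 74.0 and 81.7 CPM at 2 h and 139 and 115 CPM at 4 h (log2 -0.74, SE 0.11, adjusted p = 2.1e-04). Both genes of this head-to-head pair thus had their lowest libraries at 2 h. Their exons overlap over 281 bases on opposite strands. HSPE1 also shares 192 exonic bases with HSPE1-MOB4 on its own strand, which no strand setting would separate. HSPA9 (mortalin), the matrix HSP70 and import motor, fell by 17.4% (adjusted p = 0.033), a call lost under 5 of 13 other settings. TRAP1, the mitochondrial HSP90, had 179.9 and 171 CPM in the controls, 172 and 166 CPM at 2 h and 171 and 169.5 CPM at 4 h, and its 95% interval of the log2 change at 2 h ran from -0.25 to 0.14. DNAJA3 (TID1), the J-protein of HSPA9, changed by -0.10 (SE 0.10, adjusted p = 0.44). TRAP1 shares 1531 exonic bases with DNASE1 on the other strand.

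**Figure D3:**
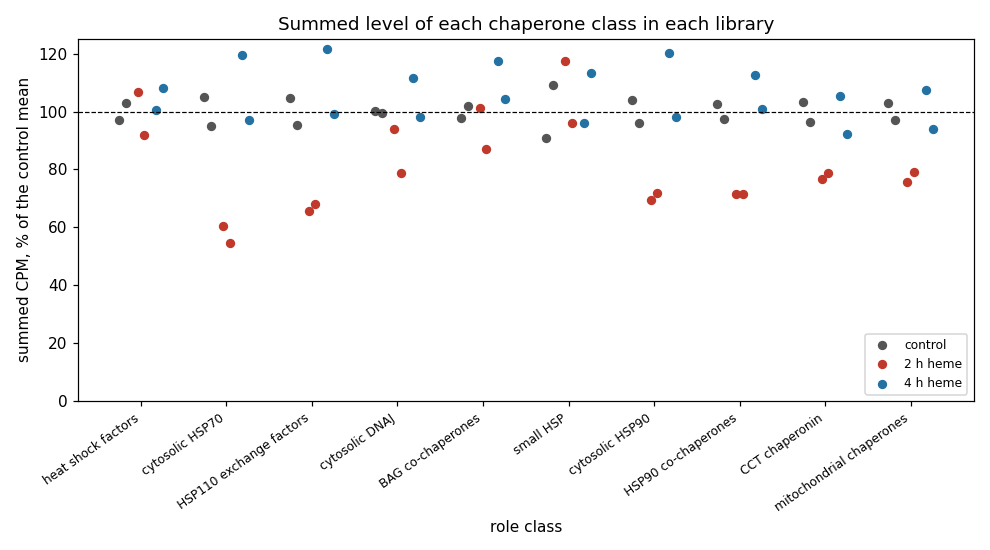
Summed CPM of each role class in each library, as a percentage of the mean of the 2 control libraries (dashed line). At 2 h the cytosolic HSP70 sum stood at 60.4% and 54.7%, the HSP110 sum at 65.8% and 68.1% and the HSP90 sum at 69.6% and 72%, while the 2 libraries lay on both sides of 100% in the sums of the heat shock factors, BAG and small HSP genes. A sum follows its most abundant genes, such as HSPA8 at a control mean of 3356 CPM, or HSF1 at 143 CPM beside HSF2 at 15.9 CPM. HSF2 and BAG2 were each called lower at 2 h, which their class sums do not show.

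At 4 h none of the 42 genes differed from the control past the threshold. The edgeR count was 0 in either direction, DESeq2 also called 0, and 3 were higher at an unadjusted p under 0.05 (HSPA1A, CHORDC1 and HSPH1), beside 313 higher and 270 lower of the 16209 tested genes. The background of calls was low as well: 0.0247% of all tested genes were called higher, 0.00617% lower and 0.0308% either way, and of genes with a control mean of at least 10 CPM 0.0424% were called higher and 0.0106% lower. The median log2 change of the 42 was 0.04, beside 0.00 over all genes. Over the 26 genes that were lower at 2 h, the 95% intervals of the 4 h change lay between -0.30 and 0.61, so small differences in either direction are not excluded. HSPA1A was the highest, with a log2 change of 0.51 (SE 0.20, adjusted p = 0.99995) and both 4 h libraries above both controls. CHORDC1 at 0.33 (SE 0.13) and HSPH1 at 0.28 (SE 0.12) came next, the latter with overlapping libraries. In 8 of the 42 genes both 4 h libraries were above both controls, in none were both below, and in 34 they overlapped. The same counts over all tested genes were not made, so these 8 are no result about the chaperone genes. On the low side the smallest p belonged to DNAJB2 (-0.08), CCT8 (-0.05) and TRAP1 (-0.04), all with overlapping libraries. HSPA1A was called higher when either 2 h library was left out of the shared fit (adjusted p = 0.041 without 2 h replicate 1 and 0.044 without 2 h replicate 2), and without 4 h replicate 1 the median turned to -0.042.

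**Figure D4:**
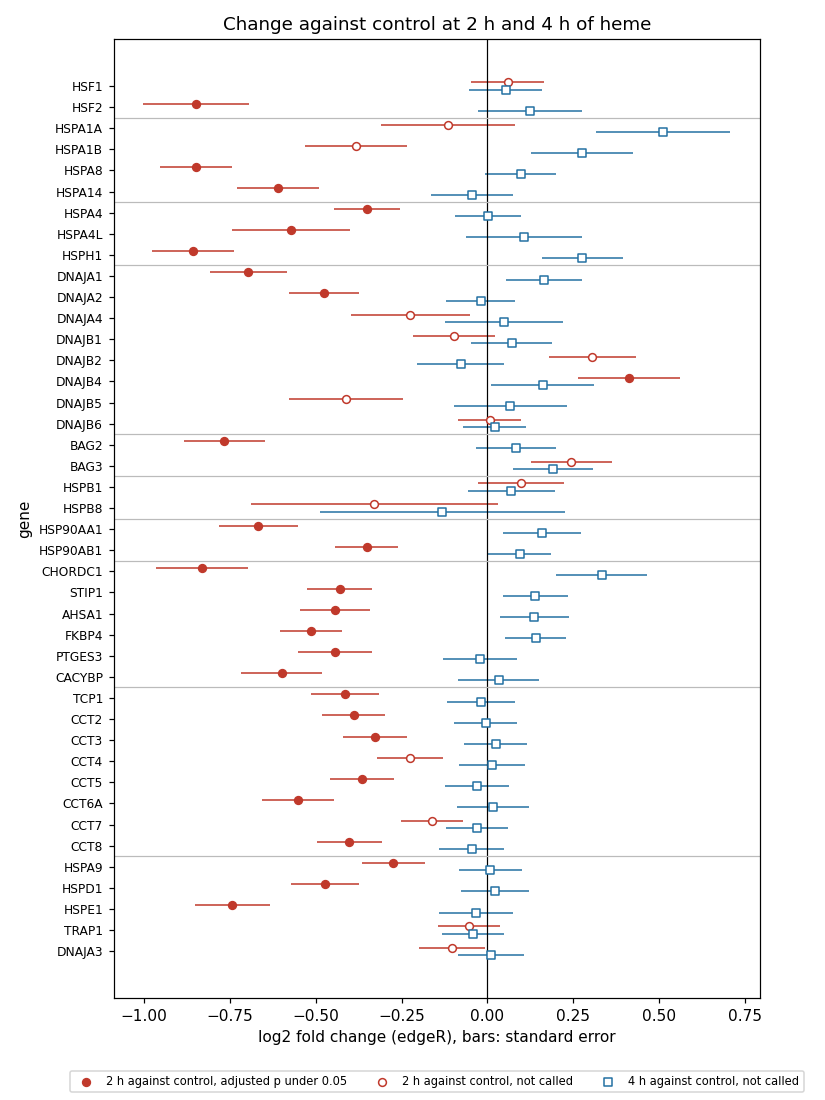
Log2 fold change against the control for each of the 42 genes at 2 h (circles) and 4 h (squares), with the standard error of the edgeR fit; filled circles are calls at an adjusted p under 0.05. At 2 h 26 filled circles lie left of 0 and 1 (DNAJB4) right of it, and no square is filled; both comparisons share the 2 control libraries.

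Set directly against 2 h, 29 of the 42 genes were higher at 4 h and 1, DNAJB2, was lower. Among all tested genes 14% were called higher, 14.1% lower and 28.1% either way in this comparison, and among those with a control mean of at least 10 CPM 21.6% were called higher and 11.7% lower. The 29 were all 26 genes that had been lower at 2 h, with HSPA1A, HSPA1B and DNAJB5 besides. CHORDC1 was 2.24-fold higher at 4 h than at 2 h (log2 1.16, SE 0.13, adjusted p = 3.1e-05), HSPH1 2.19-fold (log2 1.13, SE 0.12, adjusted p = 1.6e-05) and HSPA8 1.93-fold (log2 0.95, SE 0.10, adjusted p = 2.3e-05). These 3 were also the only ones called against a change of 1.5-fold. On the log2 scale HSF2 was higher by 0.97, DNAJA1 by 0.86, BAG2 by 0.85 and HSP90AA1 by 0.83. HSPA1A and HSPA1B, summed, were higher by 0.64 on the log2 scale (SE 0.17, adjusted p = 0.011). The median log2 change of the 42 was 0.43, beside -0.03 over all genes. DNAJB2 fell by 0.38 on the log2 scale between 2 h and 4 h (adjusted p = 0.035), a call lost under 5 of 13 other settings, as was that of HSPA1A under 5 of 14, and that of DNAJB5 under 8 of 13.

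This rise rests in part on 1 library. Replicate 1 at 4 h was higher than replicate 2 for 37 of the 42 genes, and its median log2 ratio to the control mean was 0.12 against -0.04. Without it, 16 genes were called higher than at 2 h in place of 29, and leaving out any other library left 27 or 28. In the controls replicate 1 was the higher library for 28 of the 42 genes, and at 2 h for 21. The matching counts over all tested genes were not made, so this order may not be particular to these genes. In no comparison was any of 11 genes called: HSF1, DNAJA4, DNAJB1, DNAJB6, BAG3, HSPB1, HSPB8, CCT4, CCT7, TRAP1 and DNAJA3.

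The wider chaperone network was followed through 84 more genes in 5 lists, of which 77 were tested. These lists too were chosen with earlier results of these data known. At 2 h 31 of the 77 (40.3%) were lower and 1 was higher, beside 15.8% lower among all tested genes and 24.7% among those with a control mean of at least 10 CPM, and the median log2 change was -0.25. HSBP1, which binds the trimer domain of HSF1, was the 1 of 3 genes lower in the heat shock factor list (log2 -0.40, SE 0.10, adjusted p = 0.0098). Among other HSP70, J-protein, BAG and small HSP genes, 10 of 26 were lower, led by DNAJC2, a ribosome-bound J-protein. DNAJC2 had 78.2 and 74.5 CPM in the controls, 31.0 and 44.4 CPM at 2 h and 81.2 and 65.9 CPM at 4 h, a log2 change of -1.02 (SE 0.15, adjusted p = 2.2e-04) at 2 h. BAG4 came next at -0.72 (SE 0.14, adjusted p = 0.002). HSPA6, an HSP70 gene that is strictly stress-induced in human cells, was read at 3.53 and 3.45 CPM in the controls, 7.32 and 2.8 CPM at 2 h and 5.89 and 5.24 CPM at 4 h, and was the 1 network gene with an unadjusted p under 0.05 at 4 h (log2 0.67, SE 0.31, adjusted p = 0.99995); it is named after its values were seen.

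Of 15 further HSP90 co-chaperones 9 were lower, among them TOMM34, which escorts mitochondrial precursors (log2 -0.48, SE 0.09, adjusted p = 0.0013), and SUGT1 (log2 -0.51, SE 0.12, adjusted p = 0.0042). Of 16 prefoldin, tubulin cofactor and CCT partner genes 7 were lower and none was higher: PDCL3, a phosducin-like CCT partner, at -0.61 (SE 0.13, adjusted p = 0.0035) and VBP1, a prefoldin subunit, at -0.43 (SE 0.12, adjusted p = 0.013) had the smallest p. Of 17 other mitochondrial chaperones and proteases 4 were lower (23.5%) and 1 was higher, a share lower that is near the 24.7% of genes with a control mean of at least 10 CPM and is no result about this list. GRPEL1 and GRPEL2, nucleotide exchange factors of HSPA9, changed by -0.59 (SE 0.10, adjusted p = 7.2e-04) and -0.41 (SE 0.12, adjusted p = 0.016). The other two were the protease components CLPX (-0.38) and AFG3L2 (-0.30), and the matrix protease LONP1 was higher at 0.31 (SE 0.10, adjusted p = 0.026); these 3 are named after their values were seen. At 4 h against the control edgeR and DESeq2 each called 0 of the 77, and against 2 h 22 (28.6%) were higher and none lower, beside 14% higher among all tested genes and 21.6% among those with a control mean of at least 10 CPM.

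The promoter letters shown above can be set beside the calls as a description. The 3-unit element was in the windows of 6 of the 23 genes that were lower at 2 h and had a window (26.1%): HSPA8, HSP90AA1, HSP90AB1, DNAJA1, CHORDC1 and HSPD1. It was in 1 of the 14 genes not called (7.14%), DNAJB6. The 2-unit element was in 12 of the 23 (52.2%) and in 8 of the 14 (57.1%), and in the window of DNAJB4. The shares of windows with a 2-unit element were thus close in genes that fell and genes not called; no test was made.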

How the data were processed

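Total RNA of PC3 cells was extracted with Trizol and made into libraries with an Illumina TruSeq kit, per the labels' protocols. Each library came as a deposited table of whole read counts, with genes given by symbol and no normalization. The hg38 build and the tools Trimmomatic, STAR, SAMtools and deepTools were used, per the submitters' processing notes. Their versions, the annotation and the strand setting were not given in the sources used here. Each table's 5 summary lines were set aside before library sizes were formed; reads outside genes were 5.48% to 6.88% and ambiguous reads 4.23% to 4.48%, beside 53129375 to 55537611 gene counts per library. A chi-square per gene of 8.54 (control), 31.6 (2 h) and 21.3 (4 h) between replicates was above sampling noise, so every library counted as 1 sample.

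All 6 libraries entered 1 edgeR 4.0.16 fit (R 4.3.3): TMM, filterByExpr with a minimum count of 10 (16209 genes left), the two-sided quasi-likelihood test and Benjamini-Hochberg adjustment over all tested genes, threshold 0.05, with 3 residual degrees of freedom and a biological coefficient of variation of 0.0982. Standard errors and 95% intervals come from that fit. The intervals and p-values use the residual degrees of freedom plus a prior borrowed across genes, with a median of 11.9 degrees of freedom. All 3 groups share 1 estimate of the spread, although the chi-square between replicates differed among them. Limits for a count of 0 cover counting error only. The fit was tested on simulated data with known changes. Of the simulated 1.5-fold changes 74.6% were recovered at 2 h and 74.6% at 4 h. Of 2-fold changes 98.5% and 97% were recovered, and of 4-fold changes 100% in each. Of unchanged genes 0.0451% and 0.0515% were called. Positions and exon lengths are from GENCODE 29 on GRCh38 (33164 of 33514 symbols matched 1 gene), promoter sequences from RefSeq on GRCh38.p14.

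Alternatives were DESeq2 1.42.0, its size factors, library totals without TMM, no filter, a replicate block, only the 2 groups compared, glmTreat at 1.5-fold, HSPA1A and HSPA1B summed, and leaving out each library. The 42 genes, the network lists and the alternatives were chosen with earlier results of these data known. Values per library are given for the heat shock factors, 12 chosen genes, the gene with the smallest p in each class at 2 h and the 3 with the smallest p in each direction and comparison; of each network list the 2 called genes with the smallest p are named.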

Additional observations from a re-analysis of the deposited data

Results flagged for a closer look

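For 30 of the 42 genes the level differed between 2 h and 4 h of heme at an adjusted p under 0.05. This was the direct edgeR test of 4 h against 2 h, which 28.1% of all tested genes passed. The controls are shared by both time points, and this test does not use them for its direction. Values are log2 changes from 2 h to 4 h. In the heat shock factors and the cytosolic HSP70 genes the change was 0.97 for HSF2, 0.95 for HSPA8, 0.66 for HSPA1B, 0.63 for HSPA1A and 0.56 for HSPA14. In the HSP110 genes it was 1.13 for HSPH1, 0.68 for HSPA4L and 0.35 for HSPA4. Among J-protein and BAG genes it was 0.86 for DNAJA1, 0.85 for BAG2, 0.48 for DNAJB5, 0.46 for DNAJA2 and -0.38 for DNAJB2, the last being the 1 gene of the 30 that was lower at 4 h. The HSP90 genes changed by 0.83 for HSP90AA1 and 0.45 for HSP90AB1. For the HSP90 co-chaperones the values were 1.16 for CHORDC1, 0.65 for FKBP4, 0.63 for CACYBP, 0.58 for AHSA1, 0.57 for STIP1 and 0.42 for PTGES3. For the CCT subunits they were 0.57 for CCT6A, 0.40 for TCP1, 0.38 for CCT2, 0.36 for CCT8, 0.35 for CCT3 and 0.34 for CCT5. For the mitochondrial genes they were 0.71 for HSPE1, 0.50 for HSPD1 and 0.28 for HSPA9. The 4 h libraries lay on 1 side of both 2 h libraries in each of these 30 genes. Since the genes were picked by that same comparison, this is no added support. Without 4 h replicate 1 the median log2 change of the 42 genes was 0.32 in place of 0.43.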

How the results depend on the processing

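At 2 h, 25 to 27 of the 42 genes were called lower under DESeq2, its size factors, library totals without TMM, no filter, the replicate block and the 2-group fit, and 0 under glmTreat at 1.5-fold; leaving out 1 library gave 15 to 27. The count called higher was 0 with DESeq2 size factors, no filter, the replicate block, the 2-group fit and glmTreat, 2 with library totals and 0 to 2 with 1 library left out. All-gene calls at 2 h were 533 under glmTreat and 2321 to 6254 with 1 library left out. At 4 h against the control they were 15 with DESeq2, 10 without a filter, 13 in the 2-group fit, 3 under glmTreat and 4 to 16 with 1 library left out, against 5; the 42 genes gave 0 to 1 call higher, and their median ran from -0.042 (reversed, without 4 h replicate 1) to 0.12. For 4 h against 2 h, glmTreat left 3 genes higher, 0 lower and 543 of all genes; with 1 library left out, 16 to 28 were higher, 0 to 1 lower, 2199 to 5819 of all genes called, and the median ran from 0.32 to 0.55. The cause of these changes was not tested beyond what fewer libraries or a stricter threshold give by construction. With library totals in place of TMM the split of all-gene calls at 2 h moved from 2579 higher and 2557 lower to 3042 and 1815, and for 4 h against 2 h from 2270 and 2288 to 1643 and 2745, while the 42 genes gave 25 lower and 27 higher. The replicate block gave 27 lower and 0 higher at 2 h, and 29 higher and 1 lower for 4 h against 2 h; correlations of same-numbered libraries were -0.20, 0.16 and -0.10, so the numbers are not shown to pair libraries. With 1 library left out of a group, the lone library is assumed to vary like the other groups. No pseudogene copy named after the 42 was in the tables, so adding such counts was not run. With 2 libraries a group and 3 residual degrees of freedom, changes of the size not called here can be missed; depth also limits HSPB8, with 36 to 60 reads a library.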
